A study of Sus scrofa with 8 samples.

Results

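The data described here are the liver RNA profiles of 4 pools of lactating sows (Sus scrofa, domestic pig), and the question is which genes and which metabolic functions differed from pool to pool within the lactating group. Each pool held equal amounts of liver RNA from 2 sows and was hybridised to 1 Affymetrix Porcine array, so the group covers 8 sows. A second group of 4 pools from 8 non-lactating sows, 16 sows in all, was prepared in the same way and serves here only as a yardstick for spread. The labels used here give no age, breed, parity, litter size, feeding state or day of lactation, and do not identify the sows of each pool. A difference between 2 pools is therefore a difference between averages of 2 animals, and the pools have no order. With 1 gene symbol per probe set and the brightest probe set standing for its gene, 8143 symbols were on the array, and the 4993 whose mean log2 signal over the lactating pools was 7 or more were kept and ranked by their standard deviation (SD) over the 4 pools. MED23 and SLC2A4 lay just inside that limit, at means of 7.0009 and 7.0040, and RGL1 and HCST just outside it, at 6.99996 and 6.9995.

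The liver of a lactating mammal supplies glucose for milk lactose, exports lipid, and oxidises fatty acids released from body fat when feed intake does not meet the demand of the gland. These functions are switched by hormones and nutrients: insulin favours fatty acid and sterol synthesis through SREBP factors, glucagon, glucocorticoids and low insulin favour gluconeogenesis through FOXO1 and CREB, and fatty acids favour their own oxidation and ketone body synthesis through PPAR alpha. Liver also makes the acute phase proteins of plasma, and immediate early genes such as FOS respond within minutes to stimuli.

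Most genes differed little between lactating pools. The median SD was 0.139 on the log2 scale, the 95th percentile was 0.425, and 3896 of the 4993 genes spanned less than 0.5 from the lowest to the highest pool. A range of 1 or more, which is a 2-fold difference between the lowest and the highest pool, was reached by 220 genes (4.41% of 4993), and 33 genes spanned 2 or more. The same genes had a median SD of 0.128 over the non-lactating pools, where 123 (2.46%) spanned 1 or more and 72 did so in both groups. Of the 220 genes, 193 had the larger SD in the lactating group, which follows in part from their choice by range in that group. The count was 155, 143, 140 and 161 without lactating pools 1, 2, 3 and 4, so leaving out pool 2 or pool 3 lowered it by more than 1.5 times. A range over 3 pools is smaller by construction than a range over 4.

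The 4 profiles were alike, with Pearson correlations between pools of 0.991 to 0.994 over all 23999 probe sets other than controls, which are not independent replicates. Of the 4993 genes, pools 1 and 2 were 2-fold apart for 52, pools 3 and 4 for 54 and pools 1 and 4 for 65. Pools 1 and 3, 2 and 3, and 2 and 4 were 2-fold apart for 93, 91 and 87 of these genes. Among the 220 genes, pool 3 was the lowest for 88 (25.8% of all genes) and the highest for 35 (22.7% of all genes). Pool 2 was the highest for 70 and pool 1 for 65, near their shares of all genes (29.4% and 28.6%). The brightest genes varied least, with a median SD of 0.103 above a signal of 12 and 0.149 between 7 and 8. An RMA signal near the top of the scale (15.22) leaves little room to vary, which limits what the array shows for secreted liver proteins.

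Readings of the arrays themselves also differed between pools. The 28S ribosomal RNA control read 11.52, 9.70, 11.50 and 11.69 in lactating pools 1 to 4 with its first probe set, and pool 2 stood below the other lactating pools and below all non-lactating pools, which read 11.41 to 11.81. The 18S control read 9.08 in pool 2 and 10.06 to 10.23 in the others. The 3' minus 5' log2 signal, a reading of RNA integrity and labelling averaged over 3 control transcripts, was 3.90, 4.00, 3.75 and 3.34, lowest in pool 4. The summed signal of 8 hepatocyte markers, log2 scale, lay between 17.48 and 17.51. Summed stellate cell and fibroblast markers (14 genes) were 13.80, 13.20, 13.24 and 13.45, highest in pool 1. Of the 11 of these genes with a mean of 7 or more, 9 were highest in that pool (28.6% of all genes). Summed markers of Kupffer cells and macrophages (12 genes, 13.65 to 13.73) and of endothelium (12 genes, 11.71 to 11.79) varied less. Summed cholangiocyte markers (10 genes) were 11.21, 10.93, 10.83 and 10.73. Summed adipocyte markers (6 genes) were 11.69, 11.09, 11.62 and 11.44. Both sums were highest in pool 1. These sums take every listed marker with a probe set of its own, including those with a mean below 7. The adipocyte sum was dominated by FABP4, which read 11.28, 10.43, 11.15 and 10.98. The other adipocyte markers were not highest in pool 1. ADIPOQ and LIPE were lowest there, at 4.20 and 5.25, CFD and LEP were highest in pool 3, and CIDEA in pool 2. None of the listed B and plasma cell, neutrophil or erythroid markers with a probe set of their own reached a mean of 7. A haemoglobin alpha-like probe set outside the list, which marks red blood cells, read 11.97, 10.64, 11.07 and 11.31, highest in pool 1 and lowest in pool 2, and an IgG heavy chain is described with the immune genes below. In bulk tissue, fewer cells of a type and less RNA per cell cannot be told apart. Each result below that goes with pool 2 or pool 4 is to be read beside these values, whose part in it was not tested.

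**Figure D1:**
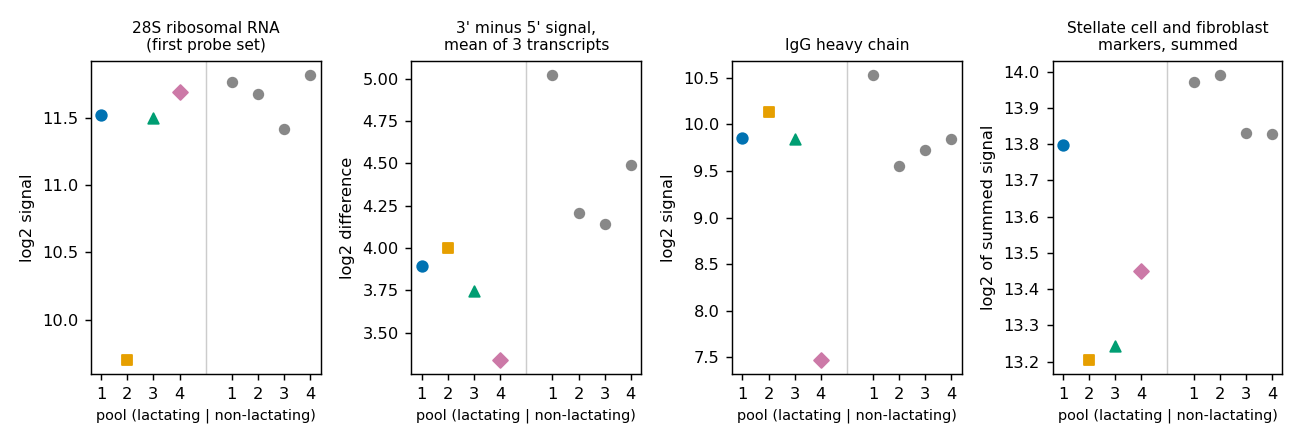
Readings of each array (y axes, log2 units) for lactating pools 1 to 4 in colour and non-lactating pools 1 to 4 in grey. The 28S ribosomal RNA signal of lactating pool 2 (9.70), the 3' minus 5' signal of lactating pool 4 (3.34) and the IgG heavy chain signal of lactating pool 4 (7.47) are the lowest of all 8 pools.

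Spread was tested between the groups by comparing the absolute deviations from the group mean of all 23999 probe sets (limma, 2-sided). At an adjusted p below 0.05, 19 probe sets were called (0.0792%), 9 with the larger spread in lactating pools and 10 with the smaller. Only 3 of the 4993 genes (0.0601%) were among them, all with the larger spread in lactating pools. SCML1, a Polycomb-related protein, read 7.74, 7.75, 7.01 and 6.84 in lactating pools 1 to 4 and had an SD of 0.0659 in non-lactating pools (limma adjusted p = 0.0350). MOV10, an RNA helicase, read 8.46, 8.51, 7.98 and 7.90 (limma adjusted p = 0.0393), and SYNE2, a nuclear envelope protein, read 9.13, 9.17, 8.70 and 8.72 (limma adjusted p = 0.0486). All 3 were higher in pools 1 and 2 than in pools 3 and 4. These calls were lost with deviations taken from the group median, where 0 probe sets passed and 1632 had an unadjusted p below 0.05, and the test called too many unchanged probe sets on simulated data. All rankings by SD below are descriptions of these 4 pools without a test.

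**Figure D2:**
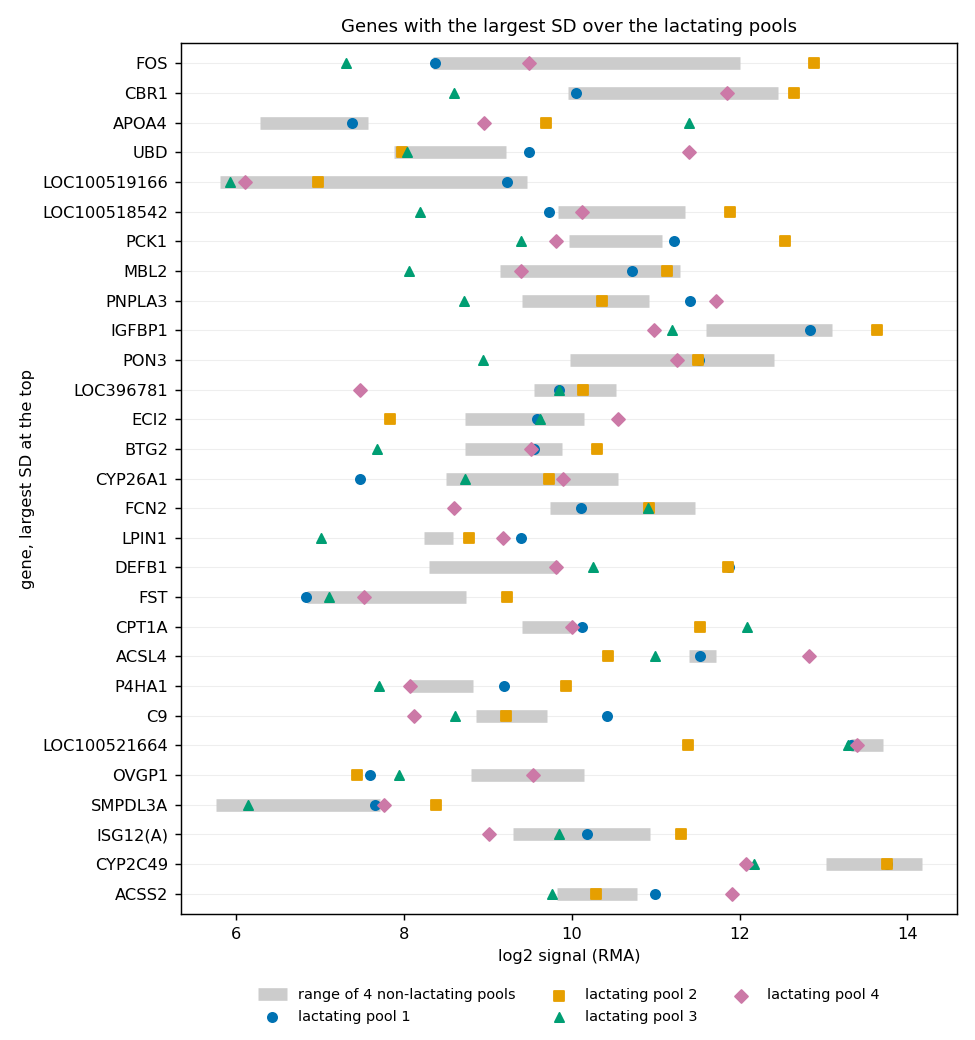
Log2 signal (x axis) in the 4 lactating pools (coloured symbols) of 29 of the 30 genes with the largest SD over those pools (y axis), with the range of the 4 non-lactating pools as a grey bar. Pool 2 is the highest for FOS, CBR1, PCK1 and IGFBP1, pool 3 the highest for APOA4 and CPT1A, and pool 4 the highest for UBD, PNPLA3, ACSL4 and ACSS2.

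The 30 genes with the largest SD included enzymes of glucose and lipid metabolism such as PCK1 and CPT1A, immediate early genes such as FOS, cytochromes P450 such as CYP26A1, and genes of none of the lists such as CBR1, FST, P4HA1 and OVGP1. ACSS2 held rank 30 with an SD of 0.930, and ULK1, an autophagy kinase, followed with 0.928. None of the 30 genes passed the test of spread, and CPT1A had a limma adjusted p of 0.0807 in it. Of these 30 genes, 22 also spanned 1 or more in the non-lactating pools, where their median SD was 0.671. For 21 of them the SD fell by more than 1.5 times when a single pool was left out, which was pool 1 for 4 genes, pool 2 for 5, pool 3 for 6 and pool 4 for 6.

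The genes of glucose production and of the response to low insulin that varied most, PCK1 and IGFBP1, were highest in pool 2. PCK1, the cytosolic phosphoenolpyruvate carboxykinase that commits carbon to glucose, read 11.22, 12.54, 9.39 and 9.82 in pools 1 to 4 (SD 1.43, against 0.493 in non-lactating pools). IGFBP1, a binding protein of insulin-like growth factors that insulin represses, read 12.84, 13.63, 11.20 and 10.98 (SD 1.29, against 0.683). Both were high in pools 1 and 2 and low in pools 3 and 4, with 8.86-fold and 6.31-fold between the extreme pools. PPARGC1A, a coactivator of the gluconeogenic genes, had the same highest pool at a smaller range, with 7.87, 8.29, 7.45 and 7.54, and its levels were chosen for mention after they were seen. Other enzymes of glucose production did not follow PCK1. PC, the pyruvate carboxylase that feeds the pathway, read 10.92, 11.19, 11.28 and 10.39, lowest in pool 4. PPP1R3B, a glycogen-targeting subunit of protein phosphatase 1, read 10.96, 10.71, 11.95 and 11.05, highest in pool 3. PGM2, a phosphoglucomutase, read 10.30, 9.80, 9.33 and 10.65, lowest in pool 3. Over the 12 measured genes of gluconeogenesis, glycogen and glucose release, the median SD was 0.340 and 3 spanned 1 or more (25%, against 4.41% of all genes), a count that fell to 1 without pool 3. These 12 genes were highest in pools 2, 3 and 4 for 3, 5 and 4 genes, so no pool led the list.

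Glycolytic enzymes varied less, with a median SD of 0.129 over 12 genes. LDHB, a lactate dehydrogenase subunit, read 11.71, 12.09, 12.58 and 11.11 in pools 1 to 4, highest in pool 3 and lowest in pool 4. PDK4, the kinase that shuts pyruvate dehydrogenase in fasting, had an SD of only 0.153 and read 11.94, 11.94, 11.65 and 11.99.

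Fatty acid synthesis was the metabolic list of at least 5 genes with the largest spread. Of its 21 genes, 10 were measured at a mean of 7 or more, 5 lay below it and 6 had no probe set with their symbol alone. All 10 were highest in pool 4, the highest pool for 19.3% of all genes, and 6 were lowest in pool 3, the lowest pool for 25.8% of all genes. FASN, the fatty acid synthase, read 12.45, 11.65, 11.35 and 13.08 in pools 1 to 4 (SD 0.786, against 0.346 in non-lactating pools). ACLY, which makes cytosolic acetyl-CoA from citrate, read 11.33, 10.43, 10.70 and 12.01 (SD 0.704, against 0.229). ACSS2, which makes acetyl-CoA from acetate, read 10.99, 10.29, 9.76 and 11.91 (SD 0.930, against 0.443). In each of these 3 enzymes pool 4 came first and pool 1 second. PNPLA3, a lipid droplet protein that is a target of SREBP-1c in human and mouse, read 11.41, 10.36, 8.72 and 11.71, a 7.99-fold span. SCD, the desaturase that makes oleate, read 13.83, 13.48, 13.51 and 14.37. PGD, an NADPH-producing enzyme of the pentose phosphate pathway, read 8.51, 8.15, 7.85 and 9.15. Pool 4 was thus the highest for all 10 genes with a mean of 7 or more. Of the 5 listed genes below that mean, ACACA and SREBF1 were highest in pool 4, and ME1, FADS2 and ELOVL2 in pool 2. ME1 read 6.18, 7.23, 6.46 and 7.17, and FADS2 read 6.75, 7.04, 6.60 and 6.96. The median deviation of the 10 brighter genes from their own mean was 0.72 in pool 4 and -0.49 in pool 3.

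The median SD of these 10 genes was 0.549 against 0.139 for all genes, and 6 of the 10 spanned 1 or more. Without pool 4 the number spanning 1 or more fell from 6 to 3. After a cyclic loess normalisation of the arrays the list was again highest in pool 4 for 10 of 10 genes. In the non-lactating pools the median SD of the same genes was 0.323, 2 spanned 1 or more, no pool was the highest for more than 4 of them, and 7 were lowest in pool 3 of that group (26.9% of all genes). ACSL4, which activates arachidonate and other long-chain fatty acids, was in none of the lists and read 11.53, 10.44, 10.99 and 12.83 (SD 1.02, against 0.155 in non-lactating pools), again highest in pool 4. A dimmer probe set of ACSL4 had the same highest and lowest pools, as did a dimmer one of ACSS2. Dimmer probe sets of FASN, with means of 7.55 and 7.14, varied less, with SDs of 0.275 and 0.264. They were highest in pool 4 too but lowest in pool 2. Pool 4 also had the lowest 3' minus 5' signal of the lactating pools, as given above, and its part in these differences was not tested.

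Sterol synthesis separated the pools in a similar way but with smaller ranges. All 11 measured genes of cholesterol synthesis and LDL uptake were highest in pool 4 (7 genes) or pool 1 (4 genes, the highest pool for 28.6% of all genes) and lowest in pool 3 (6 genes) or pool 2 (5 genes, the lowest pool for 21.9% of all genes). Their median deviations were 0.20, -0.30, -0.34 and 0.28 in pools 1 to 4. The median SD was 0.338, against 0.143 in the non-lactating pools, and all 11 SDs lay above the median of all genes. SQLE, the squalene epoxidase, read 11.75, 10.90, 10.93 and 11.49, highest in pool 1. FDPS, the farnesyl diphosphate synthase, read 11.64, 11.13, 11.05 and 11.95. HSD17B7, which acts in the removal of methyl groups from sterols, read 12.06, 11.19, 11.14 and 11.71. In each of these 3 genes pools 1 and 4 stood above pools 2 and 3. In the non-lactating group 4, 1, 2 and 4 of these genes were highest in pools 1 to 4 of that group (23.0% of all genes for its pool 1). There 3, 5, 2 and 1 of them were lowest in pools 1 to 4, with median deviations of 0.06, -0.08, -0.02 and 0.07. Pools of the same number in the 2 groups were not taken as pairs.

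**Figure D3:**
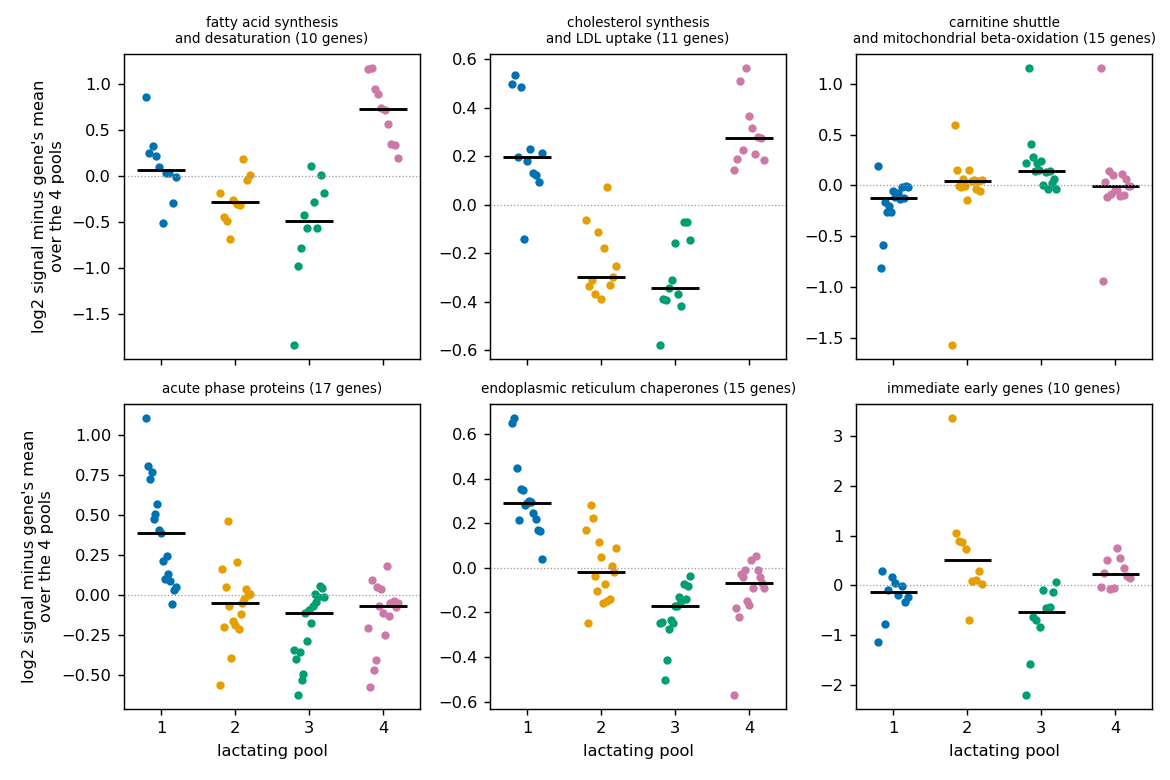
Deviation of each gene's log2 signal from its own mean over the 4 lactating pools (y axis) by pool (x axis) for 6 gene lists, with each point a gene and the black bar the list's median. Fatty acid synthesis genes are highest in pool 4 for 10 of 10 genes, acute phase genes in pool 1 for 14 of 17, endoplasmic reticulum chaperones in pool 1 for 13 of 15, and the scale of the y axis differs between panels.

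Storage and release of triglyceride did not follow a single pool. LPIN1, a phosphatidate phosphatase and coactivator, read 9.40, 8.78, 7.01 and 9.19 in pools 1 to 4, with an SD of 1.09 against 0.153 in non-lactating pools. In this probe set the low value in pool 3 carried the spread, which was 0.313 without that pool. A second probe set of LPIN1, with a mean of 8.16, had the same highest and lowest pools but was low in pool 2 too. It read 9.14, 7.64, 7.07 and 8.77. PLIN2, a coat protein of lipid droplets that fatty acids induce, read 7.20, 7.74, 9.13 and 7.64, high in pool 3 alone. GPAM, which starts glycerolipid synthesis, read 8.56, 8.34, 7.61 and 8.58, low in pool 3 alone. PNPLA2, the adipose triglyceride lipase, read 9.25, 9.80, 8.79 and 8.67, highest in pool 2. Of the 13 genes of the list 3 spanned 1 or more, with a median SD of 0.314 against 0.153 in non-lactating pools, and 1 did so without pool 3.

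Fatty acid oxidation had a few strongly varying genes in a quiet pathway. CPT1A, the liver carnitine palmitoyltransferase that controls entry of fatty acids into mitochondria, read 10.12, 11.53, 12.09 and 10.004 in pools 1 to 4 (SD 1.04, against 0.268 in non-lactating pools, where it read 9.40 to 9.98). Pools 2 and 3 were thus high and pools 1 and 4 low, with 4.25-fold between the extreme pools. HADHA, a subunit of the mitochondrial trifunctional protein, read 10.34, 11.08, 11.34 and 10.96. Both genes were highest in pool 3, and CPT1A alone was as low in pool 4 as in pool 1. Of the 15 genes of the carnitine shuttle and mitochondrial beta-oxidation, 10 were highest in pool 3 (22.7% of all genes) and 8 lowest in pool 1 (26.1% of all genes). The median SD of the list was only 0.167, close to the 0.139 of all genes, and 2 genes spanned 1 or more, CPT1A and ECI2, of which CPT1A alone did without pool 2. The second was ECI2, an enoyl-CoA isomerase annotated as peroxisomal in the deposited table, which read 9.58, 7.83, 9.62 and 10.55. Its SD was 0.549 without pool 2, and a dimmer probe set with a mean of 6.42 did not share its highest or lowest pool. Peroxisomal oxidation genes had a median SD of 0.165 over 8 genes, of which ACOX3 spanned 1 or more.

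The list of fasting and PPAR alpha targets, which shares genes with the lists above, held 14 measured genes with a median SD of 0.367, and 6 spanned 1 or more (42.9%). It did not move as a block. Pool 2 was highest for 7 of the 14 genes (29.4% of all genes), pool 3 for 4 and pool 4 for 3. ANGPTL4, an inhibitor of lipoprotein lipase, read 10.45, 10.38, 11.001 and 11.04, higher in pools 3 and 4. CREB3L3, a liver transcription factor of the fasting response, read 10.37, 10.87, 10.45 and 9.85, and VNN1, a pantetheinase, read 7.39, 7.80, 7.19 and 6.49, both highest in pool 2 and lowest in pool 4.

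**Figure D4:**
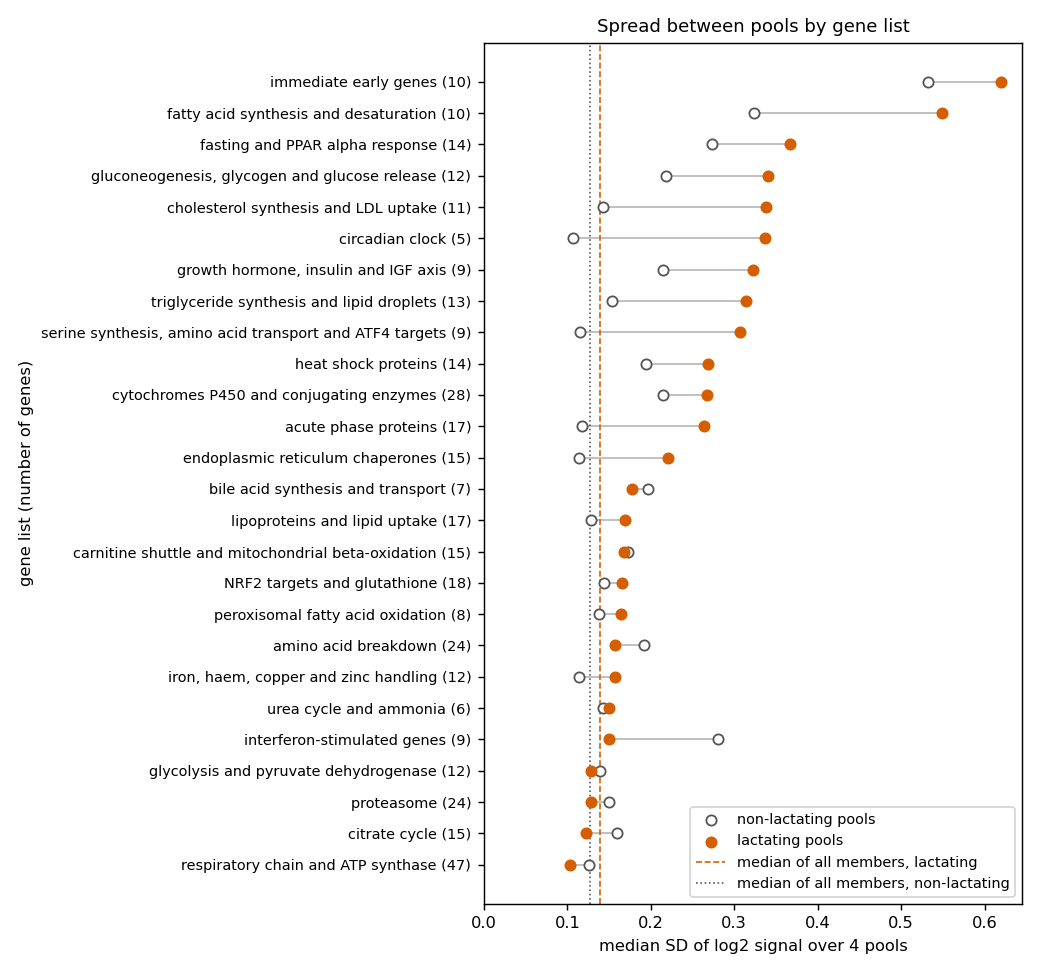
Median SD of the log2 signal over 4 pools (x axis) for gene lists with at least 5 measured genes (y axis, number of genes in brackets). Lactating pools are filled and non-lactating pools open, and the lists of cell type markers are not plotted. The vertical lines mark the medians of all 4993 genes (0.139 and 0.128), and fatty acid synthesis (0.549) and immediate early genes (0.620) lie farthest to the right.

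Among genes of lipid transport, APOA4 had the largest SD of all genes in the metabolic lists (1.67). APOA4, an apolipoprotein that liver secretes in proportion to its triglyceride content in mice, read 7.38, 9.69, 11.40 and 8.96 in pools 1 to 4, a 16.2-fold span. Its non-lactating pools read 6.29 to 7.57, so lactating pool 1 lay within their range and pools 2, 3 and 4 above it. The order with pool 3 highest and pool 1 lowest was shared by PLIN2. MFSD2A, a transporter of lysophosphatidylcholine, read 9.67, 8.51, 7.85 and 9.47, high in pools 1 and 4 as the sterol genes were. APOM, an apolipoprotein of HDL, read 11.62, 11.73, 11.31 and 10.66, lowest in pool 4. APOB, the core protein of VLDL, differed by only 0.06 between its extreme pools. APOA2, an abundant apolipoprotein of HDL, varied more, with 13.05, 13.84, 13.45 and 13.17 (SD 0.350, against 0.131 in non-lactating pools). Over the 17 lipoprotein genes the median SD was 0.169, 3 spanned 1 or more, and 7 were lowest in pool 4 (26.3% of all genes).

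Amino acid metabolism varied in single genes. ASNS, the asparagine synthetase and a target of ATF4, read 8.19, 7.73, 6.71 and 6.67 in pools 1 to 4 (SD 0.755, against 0.0777 in non-lactating pools, limma adjusted p for the difference in spread = 0.0670). PSPH, the last enzyme of serine synthesis, read 8.51, 9.35, 8.08 and 9.67 and did not follow ASNS. CTH, the cystathionine gamma-lyase, read 12.69, 12.82, 13.004 and 11.97, low in pool 4 alone. Of the 9 genes of serine synthesis, amino acid transport and ATF4 targets, 3 spanned 1 or more, with a median SD of 0.307 against 0.115 in non-lactating pools. ATF4 itself had an SD of 0.111. In the breakdown of amino acids 2 of 24 genes spanned 1 or more, which were IVD of leucine breakdown and TAT, the tyrosine aminotransferase, with 11.54, 11.03, 10.53 and 10.93 for the latter, and 1 did without pool 1, pool 2 or pool 3. None of the 6 urea cycle and ammonia genes reached a range of 1, and the widest was ARG1, the arginase, with 12.95, 13.11, 13.75 and 12.76, high in pool 3.

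Among the metabolic lists, the core of energy metabolism varied least. No gene of the citrate cycle (15 genes, median SD 0.122) or of the respiratory chain and ATP synthase (47 genes, median SD 0.104) spanned 1 or more. The small differences had a direction, since 34 of the 47 respiratory genes were lowest in pool 1 (26.1% of all genes), by a median deviation of -0.11. In the non-lactating group 32 of the same 47 genes were lowest in pool 1 of that group (29.1% of all genes). The proteasome, which degrades ubiquitinated proteins, also varied little, with a median SD of 0.128. Of its 24 subunits, 19 were lowest in pool 1 (26.1% of all genes) and 16 highest in pool 4 (19.3% of all genes). In the non-lactating group 20 of the 24 were lowest in pool 1 of that group (29.1% of all genes), with a median SD of 0.150. PSMD1, the largest regulatory subunit of the proteasome, read 11.11, 11.41, 11.65 and 11.72 in lactating pools 1 to 4. The 3' minus 5' signal was 3.90 in lactating pool 1 and 3.34 in lactating pool 4, and 5.02 in non-lactating pool 1, the highest of all 8 pools, and its part in these small differences was not tested.

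Acute phase and secretory genes were led by pool 1. Of 17 acute phase genes, 14 were highest in pool 1 (28.6% of all genes). A range of 1 or more was reached by 6 (35.3%, against 4.41% of all genes), and without pool 1 by none. SAA4, a serum amyloid A protein, read 10.87, 9.20, 9.42 and 9.55 in pools 1 to 4. It is uncertain as a member of a multigene family, and it varied more in the non-lactating pools (SD 2.01). LBP, which binds bacterial lipopolysaccharide, read 9.86, 9.22, 8.66 and 8.48. CRP, the C-reactive protein, read 13.29, 12.37, 11.94 and 12.65, and ITIH4, an acute phase protein of pigs, read 14.53, 13.81, 13.41 and 13.30, and both were chosen for mention after their values were seen. The count was 3 without pool 3. Haptoglobin (HP), the brightest of the list, differed by 0.14 at most and lay near the top of the scale. C9, the last component of the complement cascade, read 10.42, 9.22, 8.60 and 8.12, again highest in pool 1.

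Chaperones of the endoplasmic reticulum, where secreted proteins fold, followed the same pool. Of 15 genes 13 were highest in pool 1 (28.6% of all genes) and 11 lowest in pool 3 (25.8% of all genes). Their median SD was 0.220 against 0.114 in non-lactating pools, where 10 of the 15 were highest in pool 3 of that group (20.6% of all genes). SDF2L1, an endoplasmic reticulum stress-inducible protein, was the single gene to span 1 or more, with 10.43, 9.95, 9.53 and 9.21, and no longer did without pool 1 or pool 4. CRELD2, another stress-inducible protein of this compartment, read 10.27, 9.34, 9.35 and 9.41, high in pool 1 alone, and HSPA5, the main luminal chaperone, read 13.65, 13.29, 13.36 and 13.43. Pool 1 was also the highest for the summed stellate cell and fibroblast and cholangiocyte markers and for the haemoglobin signal given above. It was the highest too for the adipocyte sum, which rests mostly on FABP4. ACTA2, a marker of activated stellate cells and smooth muscle, was also highest there, with 10.74, 9.28, 9.53 and 10.12. The part of these readings in the differences of the chaperones was not tested. The list of heat shock proteins, mostly cytosolic, followed another pool. Of its 14 genes, 10 were highest in pool 4 (19.3% of all genes) and 8 lowest in pool 2 (21.9% of all genes). It also holds HSPD1 and HSPE1 of mitochondria, both highest in pool 4, and SERPINH1 of the endoplasmic reticulum, highest in pool 1. HSP70.2, an inducible heat shock protein whose near-identical copies the array may not separate, read 11.78, 11.69, 13.01 and 13.02, and CRYAB, a small heat shock protein, read 10.61, 10.19, 9.60 and 10.63. The 3 genes of this list that spanned 1 or more were HSP70.2, CRYAB and HSPH1.

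Immediate early genes gave the largest spread of any list of at least 5 genes, with a median SD of 0.620 over 10 genes, of which 7 spanned 1 or more. FOS, a subunit of the AP-1 transcription factor, read 8.37, 12.89, 7.31 and 9.49 in pools 1 to 4, a 47.8-fold span and the largest SD of all 4993 genes (2.42). A gene described as EGR1-like (LOC100518542) read 9.73, 11.88, 8.19 and 10.13. BTG2, an antiproliferative gene of the same response, read 9.55, 10.31, 7.68 and 9.52. In all 3 pool 2 was the highest and pool 3 the lowest, although another probe set of BTG2, with a mean of 8.37, was highest in pool 4. Over the list, 6 genes were highest in pool 2 (29.4% of all genes) and 4 in pool 4 (19.3% of all genes). Pool 3 was the lowest for 6 (25.8% of all genes), and 4 and 3 spanned 1 or more without pool 2 and without pool 3. The list varied nearly as much in the non-lactating group, with a median SD of 0.532, where 8 of the 10 genes were highest in pool 3 (20.6% of all genes) and FOS reached 12.01 in that pool. Wide ranges in this list were thus seen in both groups. PCK1 and BHLHE40, a clock-linked repressor that read 9.51, 9.94, 8.58 and 9.49, shared the highest and lowest pools of FOS. That pair of pools was the most frequent among the 220 genes that spanned 1 or more, with 39 of them.

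Several genes of immunity outside the lists were among the 30 with the largest SD, and their pool orders differed. UBD, a ubiquitin-like modifier induced by cytokines, read 9.48, 7.98, 8.04 and 11.40 in pools 1 to 4, highest in pool 4. MBL2, a lectin that starts the complement cascade, read 10.72, 11.14, 8.06 and 9.40, lowest in pool 3. FCN2, a ficolin of the same pathway, read 10.11, 10.93, 10.91 and 8.59, lowest in pool 4. The IgG heavy chain (LOC396781) read 9.85, 10.13, 9.84 and 7.47, low in pool 4 alone, while the non-lactating pools read 9.55 to 10.53. LYZ, a lysozyme of macrophages, was also lowest in pool 4, at 6.46 against 7.59 to 7.96, whereas CD163 of macrophages read 9.24 to 9.42 in all 4 pools. The 9 measured genes of the interferon-stimulated list had a median SD of 0.150, and none spanned 1 or more. ISG12(A), an interferon-stimulated gene outside that list and among the 30, read 10.18, 11.30, 9.84 and 9.01. It was highest in pool 2 and lowest in pool 4, with an SD of 0.947 against 0.765 in non-lactating pools.

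Enzymes of drug and steroid metabolism varied gene by gene. Of 28 cytochromes P450 and conjugating enzymes, 6 spanned 1 or more (21.4%), and 6 did so in the non-lactating pools too. CYP26A1, which degrades retinoic acid, read 7.48, 9.73, 8.73 and 9.90, lowest in pool 1. CYP2C49 read 13.76, 13.75, 12.17 and 12.08, high in pools 1 and 2 as IGFBP1 was. CYP2B22, whose relatives respond to the receptor CAR in other species, read 7.76, 8.20, 8.67 and 9.51, and CYP1A1, a target of the aryl hydrocarbon receptor, read 10.50, 11.08, 12.06 and 11.20. In the list as a whole, 15 genes were lowest in pool 1 (26.1% of all genes) and 14 highest in pool 4 (19.3% of all genes). In the non-lactating group 13 of the 28 were lowest in pool 1 of that group (29.1% of all genes). The members of the CYP2 and CYP3 families are alike in sequence, so their probe sets may not be specific. CBR1, a carbonyl reductase, had the second largest SD of all genes (1.82), with 10.05, 12.64, 8.60 and 11.86. PON3, a paraoxonase carried on HDL, read 11.52, 11.51, 8.94 and 11.26, low in pool 3 alone, and its SD without that pool was 0.150. AMACR, a racemase needed for bile acid side chain shortening, read 10.002, 9.91, 11.20 and 11.36, higher in pools 3 and 4.

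In the growth hormone, insulin and IGF list 1 of 9 genes spanned 1 or more, which was IGFBP1. IGFBP2 read 10.45, 10.20, 9.55 and 9.60, with an SD of 0.445 against 0.0203 in non-lactating pools (limma adjusted p for the difference in spread = 0.0571). GHR, the growth hormone receptor, read 8.88, 8.81, 9.30 and 9.67, and IGF1 read 8.62, 8.47, 8.77 and 9.19. IGFBP1 and IGFBP2 were thus high in pools 1 and 2, and GHR and IGF1 in pools 3 and 4. Of 12 genes of iron, haem, copper and zinc handling, 4 spanned 1 or more (33.3%), and 2 did so without pool 1 or without pool 4. MT1A, a metallothionein that binds zinc and copper, read 14.22, 14.62, 14.70 and 13.47, and MT3 read 9.03, 9.34, 9.14 and 7.83, both low in pool 4. SLC39A14, a zinc and iron importer induced in the acute phase, read 10.65, 9.63, 9.25 and 9.31, and HAMP, which encodes hepcidin, read 11.79, 11.22, 10.79 and 11.34. The latter pair was highest in pool 1 like the acute phase genes, of which HAMP is a listed member.

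Identity markers of hepatocytes stayed level across pools. ALB, the albumin gene, read 15.17 to 15.21 over the pools, near the top of the scale, and the median SD of the 8 hepatocyte markers was 0.0286. TAT was the exception among them, with a range of 1.02. Where a named gene had another probe set with a mean of 7 or more, 18 of 25 such probe sets had the same highest pool and 17 the same lowest pool.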

How the data were processed

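Liver RNA of 8 pools was measured on Affymetrix Porcine arrays. The authors deposited log2 signals, made with Affymetrix Expression Console and RMA per the submitters' processing notes, with versions not given in the sources used here. Ratio columns of single pools were not used. Of 24123 probe sets, 124 controls were left out. Symbols of the deposited table were updated through Sscrofa11.1 gene tables (9065 by Entrez identifier, 30 by RefSeq transcript, 2135 as deposited). A single symbol was held by 11230 probe sets, several by 326 and none by 12443. A gene was represented by its brightest probe set across the 4 lactating arrays, if that mean reached 7, and 926 of the 4993 genes kept carry provisional LOC names.

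Spread was compared with limma 3.58.1 in R 4.3.3 on absolute deviations from group means, with Benjamini and Hochberg adjustment over 23999 probe sets. The procedure was tested on simulated data. Descriptive values were computed in Python 3.11.15 with pandas 2.3.3 and numpy 2.4.6. Named genes were the 30 with the largest SD, the 4 or 2 with the largest SD of each list, 13 whatever their values (HMGCS1 and CYP7A1 had no probe set of their own) and those with the smallest p for spread, 108 in all, of which some are not reported here. Other list members named in the text were chosen after their values were seen. The genes and the 39 lists were chosen with earlier results of these data known. Alternatives covered the minimum mean, the probe set rule, cyclic loess, the 2-decimal values, the symbols and leaving out each pool. Per the labels' design text, 8 sows per group made 4 pools of 2, so p-values reflect the spread between pools of animals. No detection calls or scan dates were used, and the number of arrays limits the precision.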

Additional observations from a re-analysis of the deposited data

Results flagged for a closer look

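In these results a single lactating pool stood apart from the other 3, by a gap that was large for the group's range. Chance alone marks about 1 in 20 groups of values in this way, and 5 of 108 named genes and 2 of 30 lists were marked, so the number of marked genes is near what chance gives. PON3, an HDL-bound paraoxonase, read 8.94 in pool 3 and 11.26 to 11.52 in the others. The IgG heavy chain (LOC396781) read 7.47 in pool 4 and 9.84 to 10.13 in the others. CRELD2, a stress-inducible protein of the endoplasmic reticulum, read 10.27 in pool 1 and 9.34 to 9.41 in the others. PDK4, the pyruvate dehydrogenase kinase of fasting, read 11.65 in pool 3 and 11.94 to 11.99 in the others, a small difference.

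The mean signal of the gluconeogenesis, glycogen and glucose release list was 11.22 in pool 2 and 10.92 to 10.97 in the others. Without PCK1, an alternative added after seeing the data, the mean was 10.94, 11.10, 11.11 and 11.02 in pools 1 to 4, so the distance of pool 2 rests on PCK1. The mean of the urea cycle and ammonia list was 12.89 in pool 3 and 12.63 to 12.67 in the others.

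Pool 2 also stood apart in ribosomal RNA controls, which the ranking does not use. The 2 probe sets of 28S ribosomal RNA read 9.70 and 10.06 in pool 2 and at least 11.50 and 11.75 in the other lactating pools, and an 18S control read 9.08 against 10.06 to 10.23. LOC100521664, a hypothetical gene among the 30 with the largest SD, read 11.38 in pool 2 and 13.29 to 13.40 in the others, and LOC100521496 read 9.29 against 10.59 to 10.81. The part of ribosomal RNA in the other results of pool 2 was not tested. Without pool 2, FOS had an SD of 1.09 and PCK1 of 0.957.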

How the results depend on the processing

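The median SD of 0.139 lay between 0.122, without lactating pool 1, and 0.141, with a mean of 6 or more, over the alternatives run. The number of genes spanning 1 or more (220, 4.41%) was 140 to 161 (2.80% to 3.22%) when a lactating pool was left out, and 171 to 297 with other minimum means. The 19 probe sets called for spread became 0 with deviations from the group median, 0 with an intensity trend and robust moderation, 9 after cyclic loess, 10 among probe sets with a mean of 7 or more and 24 with squared deviations, and leaving out a pool gave 0 to 7. With the replicate number as a block the count was 0. Deviations of equally numbered lactating and non-lactating pools correlated at 0.24, 0.09, 0.07 and 0.22, and 3 of 4 lactating pools correlated best with their own number, a hint of pairing from the data. The labels state no pairing and only some of the correlations passed 0.1, so the numbers were not taken as pairs. The SD of named genes moved for 12 with the median over probe sets, for 1 under cyclic loess and for 12 to 21 without a pool. After cyclic loess, acute phase genes spanning 1 or more fell from 6 to 4, with 14 of 17 still highest in pool 1.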

Other observations

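Some genes below the mean of 7, which the ranking leaves out, had wide ranges over the lactating pools, and they were chosen after their values were seen. ELOVL2, an elongase of polyunsaturated fatty acids, read 4.51, 8.79, 6.84 and 4.21 in lactating pools 1 to 4, with an SD of 2.15, while the non-lactating pools read 3.64 to 4.85. Its highest pool was pool 2, as for ME1 and FADS2 above, and its lowest pool 4, whereas the 10 brighter genes of fatty acid synthesis were all highest in pool 4. CCNB1, a cyclin of mitosis, read 4.42, 4.12, 6.02 and 5.04, highest in pool 3. MYCN, an oncogene related to MYC, read 6.01, 4.91, 6.62 and 4.84, and all 4 values lay below those of the non-lactating pools (7.86 to 9.54). ACTG2, an actin of smooth muscle, read 6.41, 5.23, 6.10 and 7.28, and CLDN12, a tight junction protein, read 7.53, 6.84, 5.38 and 5.46. Signals this low are close to the lower end of the scale (2.75), where the depth of the array limits what a difference shows.

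Across the 4993 genes, the SD over lactating pools and the SD over non-lactating pools had a Spearman correlation of 0.40, given as a description since genes share arrays and signal level. A principal component analysis of the 4 lactating pools put 47.8% of the variance on a first component with pools 1 and 2 at -8.34 and -10.9 and pools 3 and 4 at 11.3 and 7.87. FOS, PCK1, MBL2 and IGFBP1 had the largest weights toward pools 1 and 2, and APOA4, ECI2, AMACR and HSP70.2 toward pools 3 and 4. The second component, with 30.04%, set pools 1 and 4 (9.69 and 5.11) against pools 2 and 3 (-9.38 and -5.41), and UBD, PNPLA3, ECI2, ACSL4, MFSD2A and ACSS2 were among its largest weights toward pools 1 and 4.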
